A study of Arabidopsis thaliana with 24 samples.

Results

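Ribosomes inside plastids and mitochondria are of the bacterial type, with a small (30S) and a large (50S) subunit, and most of their proteins are encoded in the nucleus. These proteins are made in the cytosol and imported, while the ribosomal RNAs and the remaining ribosomal proteins are encoded in the organelle. In leaves, plastid ribosomes make core subunits of the photosystems and the large subunit of Rubisco, and mitochondrial ribosomes make subunits of the respiratory chain.

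The genes described here are the nuclear genes whose description in the deposited table names a 30S or a 50S ribosomal protein. There were 44 such genes among 34218 in the table. The description placed 29 of them in the plastid, 8 in its small and 21 in its large subunit, and 4 in the mitochondrion. For 11 it named no single organelle, and 1 of these, RPS16-2, was described as belonging to both. Some organellar ribosomal proteins carry other descriptions and are not among the 44.

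Messenger RNA was sequenced from fully expanded leaves of Arabidopsis thaliana at 35 days after germination. Plants were wild-type Col-0, BBX32-10, a single line that over-expresses the B-box regulator gene BBX32 in Col-0, and hy5-2, a null mutant of HY5, a bZIP transcription factor of light signalling. Plants stayed in their growth light of 150 µmol per square metre per second (LL) or received 1100 µmol per square metre per second for 3.5 h (HL). Each of the 6 groups had 4 libraries, 24 in all. The question stated for the series is which early high light responses depend on BBX32 and HY5.

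Values are FPKM, fragments scaled to gene length and library total, from 35408724 to 49341934 fragments per library. Col-0 had 2.27 to 4.07 FPKM of BBX32 before HL and 13.4 to 16.6 after it, while BBX32-10 had 810 to 897 and 364 to 1049. HY5 was at 0.196 to 0.929 FPKM in hy5-2 and at 6.26 to 24.4 in Col-0, and in BBX32-10 it was at 30.7 to 46.5. Mesophyll markers (small subunits of Rubisco and a carbonic anhydrase) summed to 18761 to 46531 FPKM. The root marker IRT1 was at 0 in every library, and the other root marker, BGLU23, ran from 1.59 to 65.5 FPKM. A change was called at an adjusted p under 0.05 from limma with Benjamini-Hochberg adjustment over all 17788 genes tested, and log2 changes are on log2(FPKM + 1). In whole leaves, fewer cells of a type and less RNA per cell cannot be told apart.

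Of the 44 genes, 40 had at least 1 FPKM in at least 4 libraries and were tested: 27 plastid, 4 mitochondrial and 9 with no single organelle stated. RPL12B, a copy of the stalk protein L12, was listed at 0 in every library. AT2G03130, described as L7/L12, reached at most 0.228 FPKM, and AT5G51610, an L11-like gene, at most 0.133 FPKM.

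The upstream sequences of 2 members are shown to set a window without the searched motifs beside one rich in them. AT5G24490 had the largest change with light, and AT4G17560 encodes a copy of plastid L19. The windows are the 250 bases before the annotated gene start in TAIR10.1, 5′ to 3′ on the gene's strand. They lie at chr5:8365351-8365600 (+ strand) and chr4:9779974-9780223 (+ strand), and no other annotated gene overlaps them. Capitals mark site II elements, the letters TGGGCC on either strand, with overlapping matches counted separately.
AT5G24490: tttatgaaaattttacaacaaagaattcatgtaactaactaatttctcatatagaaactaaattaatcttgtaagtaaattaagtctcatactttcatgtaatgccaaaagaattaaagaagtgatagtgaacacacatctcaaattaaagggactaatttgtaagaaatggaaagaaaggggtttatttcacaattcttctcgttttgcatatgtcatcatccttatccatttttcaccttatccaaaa
AT4G17560: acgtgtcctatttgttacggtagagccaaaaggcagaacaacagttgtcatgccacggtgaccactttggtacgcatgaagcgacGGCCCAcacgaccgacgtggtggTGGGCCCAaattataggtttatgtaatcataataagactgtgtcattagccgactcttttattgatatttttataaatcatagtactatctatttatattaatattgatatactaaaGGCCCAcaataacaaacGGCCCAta

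The AT4G17560 window held 5 site II matches, and the AT5G24490 window held none. Site II is known from promoters of ribosomal protein and other growth-related genes. It was found in 15 of 44 windows (34.1%), against 17.5% of the windows of tested genes and 52.7% of those of cytosolic ribosomal protein genes. The telo box, AAACCCTA on either strand, was in 4 of the 44 windows (9.09%), against 3.65% of tested genes and 22.4% of cytosolic ribosomal protein genes. The G-box, CACGTG, a sequence that HY5 is known to bind, was in 4 of the 44 (9.09%) and in 7.51% of tested genes. A match is a description of the sequence, and no binding was measured.

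Most plastid members were more abundant than the rest. The 27 plastid members had mean levels over the 24 libraries of 28.0 to 510 FPKM with a median of 302, and 24 of them were at 100 or above. The other 3 were RPL3B at 28.0, RPL10 at 41.5 and PSRP5 at 53.0 FPKM. Mitochondrial members lay at 2.95 to 38.8 FPKM with a median of 21.1. Members with no single organelle stated lay at 4.20 to 53.0 FPKM with a median of 27.6, below all 24 of the abundant plastid members. The highest member was RPL12C, a copy of the L12 stalk protein that recruits translation factors, and its nearest relative RPL12A shares 90.6% identity over 606 bases, so fragments may be divided between them. Antisense genes overlap RPS13 over 416 bases, RPL1 over 303, RPL10 over 429 and PSRP5 over 179. These antisense genes had means of 6.50, 0.136, 0.0279 and 0 FPKM in that order. Other antisense genes overlap RPL1 over 126 bases (OBE4, 11.8 FPKM), RPL10 over 148 (LKHA4, 9.09 FPKM) and PSRP5 over 73 (AAAS, 5.84 FPKM).

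**Figure D1:**
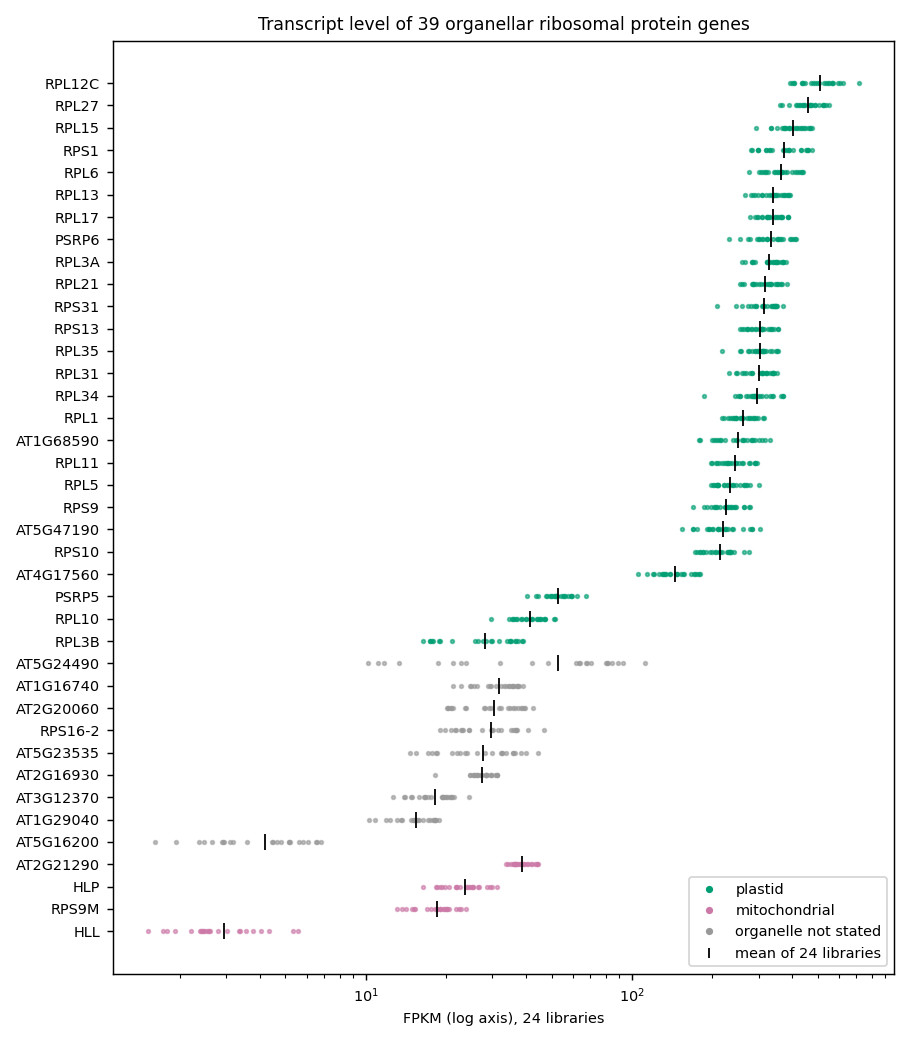
FPKM of 39 members on a log axis; each point is 1 of 24 libraries, the tick is their mean, and colour gives the organelle in the gene's description. The 23 plastid members drawn at 100 FPKM or above stand apart from the other 16, which lie at means of 2.95 to 53.0 FPKM.

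AT5G24490 changed more than any other member in every comparison in which it was called. It is described only as a 30S ribosomal protein and is known as PSRP1, the plastid homologue of bacterial hibernation factors that bind idle ribosomes. The gene lies on chromosome 5 from 8365601 to 8367460 on the + strand with 5 exons, and 159 bases of it overlap the antisense gene AT5G24500. In Col-0 LL replicates 1 to 4 had 93.0, 88.6, 84.0 and 112 FPKM. In Col-0 HL they had 22.8, 21.2, 23.8 and 18.7 FPKM. All HL libraries were below all LL libraries, and the fall was by 2.08 on the log2 scale (SE 0.19, adjusted p = 1.43e-08).

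In hy5-2 AT5G24490 fell as well. Its LL libraries had 81.2, 80.0, 67.6 and 48.5 FPKM and its HL libraries 13.3, 11.1, 11.7 and 10.2. The log2 change was -2.46 (SE 0.19, adjusted p = 3.59e-09), and the groups did not overlap. In HL hy5-2 was below Col-0, with a log2 difference of -0.85 (adjusted p = 0.0172) and no overlap, but this call was lost without Col-0 replicate 1 or 3 or hy5-2 replicate 2 or 4 (adjusted p = 0.0531 to 0.0616). The response itself was not shown to differ between hy5-2 and Col-0 (log2 interaction -0.38, 95% interval -0.95 to 0.18, adjusted p = 0.643).

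In BBX32-10 AT5G24490 was higher in HL than in Col-0. Its LL libraries had 63.8, 63.4, 62.1 and 81.2 FPKM, and its HL libraries had 32.1, 42.1, 68.1 and 70.5. The HL libraries spread into the LL range, and the log2 change of -0.40 did not pass the test (SE 0.19, adjusted p = 0.148). Without HL replicate 4 it was -0.56 and passed (adjusted p = 0.0419). All 4 BBX32-10 HL libraries were above all 4 Col-0 HL libraries, by 1.19 on the log2 scale (SE 0.19, adjusted p = 0.000118). The interaction of the line with light was 1.67 (SE 0.27, 95% interval 1.11 to 2.24, adjusted p = 0.000237) and 1.51 to 1.88 with each library left out in turn. In LL the line's log2 difference from Col-0 was -0.48 with no overlap and just missed the threshold (adjusted p = 0.0502); it passed with rescaled libraries (adjusted p = 0.0106).

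The BBX32-10 HL libraries differed widely from each other. BBX32 itself was at 364, 719, 922 and 1049 FPKM in replicates 1 to 4, in the same order as the AT5G24490 values. The plastid members ran the other way at the ends of that range, with summed levels of 8933, 7570, 8150 and 5861 FPKM. The mesophyll markers summed to 30676, 27318, 23965 and 18761 FPKM in the same libraries. With 4 libraries no relation was tested, and the part of any of these in the others was not tested.

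**Figure D2:**
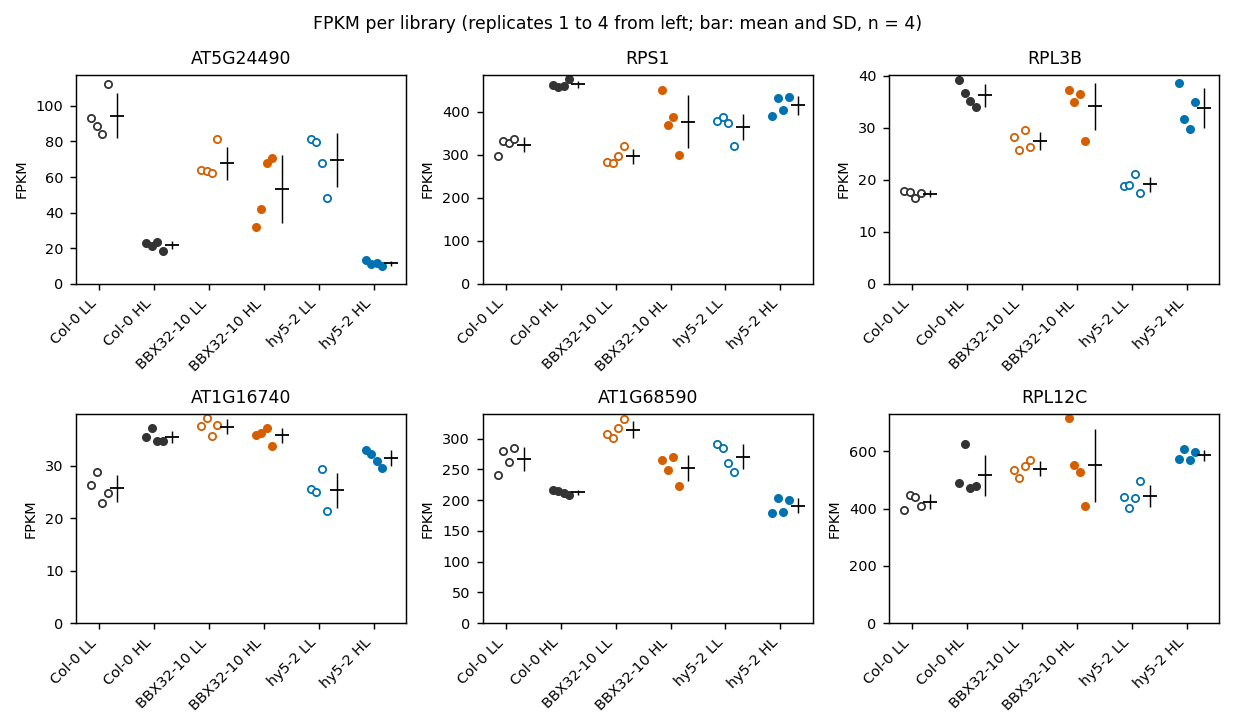
FPKM of 6 members in every library; open points are LL, filled points HL, and the bar is the mean and SD of 4 libraries. AT5G24490 is at 10.2 to 23.8 FPKM in all HL libraries of Col-0 and hy5-2 and at 32.1 to 70.5 in BBX32-10 HL.

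In Col-0 24 members were called higher in HL, and with rescaled libraries 14. Of 40 tested, 24 rose and 3 fell, while 30% of all tested genes were called higher and 21.6% lower. The members' median log2 change was 0.29, against 0.055 for all tested genes. When libraries were rescaled by their median ratio, which moved the all-gene median to -0.015, 14 members rose and 3 fell (35% and 7.5%), against 26.0% of all tested genes higher and 27.6% lower, and the members' median was 0.21. Without Col-0 LL replicate 1, 16 rose, and the share of all tested genes in that fit was not counted.

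Among the plastid members 16 of 27 rose and 1 fell, with a median log2 change of 0.25. After rescaling, 6 rose and 1 fell, 22.2% and 3.70%, a share of rises below that of all tested genes. RPS1, the small-subunit protein that binds messenger RNA at initiation in bacteria, rose from 298, 332, 328 and 337 FPKM in LL to 462, 457, 461 and 477 in HL. The groups did not overlap, and the log2 change was 0.52 (SE 0.09, adjusted p = 6.46e-05). RPL27, whose bacterial counterpart lies near the peptidyl transferase centre, rose from 415 ± 34.1 (SD, n = 4) to 523 ± 26.8 FPKM (log2 change 0.34, limma adjusted p = 0.00593), but with rescaled libraries the change was 0.25 and missed the threshold (adjusted p = 0.0511). RPL11, a protein of the GTPase-associated centre, rose by 0.34, and RPL1, of the mobile L1 stalk, and RPS13, at the subunit interface in bacteria, each rose by 0.23 (adjusted p = 0.0471 and 0.0272). The RPL1 call was lost on rescaling (0.14, adjusted p = 0.234) and held in 1 of 8 leave-one-out fits, each lacking 1 library; the RPS13 call was lost on rescaling (0.15, adjusted p = 0.206) and held in 4 of 8. PSRP6, a plastid-specific large-subunit protein named here after its values were seen, rose by 0.55. Both L19 genes rose, AT4G17560 by 0.39 and AT5G47190 by 0.53; they too were picked with values known.

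Other plastid members gave no call in Col-0. RPL13 had a log2 change of 0.18 and RPS31 had 0.09. RPL12C was at 424 ± 26.2 FPKM in LL and 516 ± 72.2 in HL (SD, n = 4), a log2 change of 0.28 that missed the threshold (limma adjusted p = 0.0555). The mesophyll markers moved with the plastid members in Col-0, from 22896 to 26224 summed FPKM in LL to 32545 to 38997 in HL, and their part in the result was not tested. The phloem marker SUC2 moved too, from 60.8 to 83.1 FPKM in LL to 37.3 to 47.6 in HL.

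The 1 plastid member that fell in Col-0 was AT1G68590, a homologue of PSRP3, which is a plastid-specific small-subunit protein. Its LL libraries had 241, 281, 262 and 284 FPKM and its HL libraries 217, 215, 212 and 208, without overlap. On the log2 scale it fell by 0.50 in hy5-2 (adjusted p = 1.41e-05), and Col-0 and BBX32-10 each gave a fall by 0.32 (adjusted p = 0.00101 and 0.00382). It was the only tested member called lower in all 3 genotypes, and the share of all tested genes so called was not counted. In BBX32-10 it was higher than in Col-0 by 0.24 in both lights (adjusted p = 0.0127 in LL and 0.0233 in HL), and both calls were lost with rescaled libraries (0.15, adjusted p = 0.183 in LL, and 0.21, adjusted p = 0.0809 in HL). The LL call was also lost without Col-0 LL replicate 1 (adjusted p = 0.0573), and the HL call without Col-0 HL replicate 3 or 4 or BBX32-10 HL replicate 3 (adjusted p = 0.0504 to 0.0769). An antisense gene, AT1G68585, overlaps 160 of its 1008 bases.

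The largest rises in Col-0 HL were those of members with low levels. Mitochondrial members had a median log2 change of 0.45 in Col-0, with 2 of 4 called, and members with no single organelle stated had 0.47, with 6 rising and 2 falling of 9. AT5G23535, an L24 protein of the kind that starts large-subunit assembly in bacteria, had 18.6, 18.4, 14.7 and 17.1 FPKM in Col-0 LL and 44.3, 36.4, 33.7 and 35.9 in HL. Its groups did not overlap, and it rose by 1.08 (SE 0.12, adjusted p = 2.26e-07). RPL3B, a plastid L3 protein of the large subunit, had 17.9, 17.8, 16.4 and 17.5 FPKM in LL and 39.1, 36.8, 35.2 and 33.9 in HL. It rose by 1.02 (SE 0.09, adjusted p = 8.58e-09). Its abundant paralogue RPL3A, picked with values known, was at 329 ± 33.2 and 344 ± 13.8 FPKM (SD, n = 4), a log2 change of 0.07 that was not called.

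RPS9M, mitochondrial S9, was at 14.3 ± 1.01 FPKM in LL and 21.8 ± 1.72 in HL (SD, n = 4), and it rose by 0.58 on the log2 scale (limma adjusted p = 9.25e-05). Of its 2631 bases 477 are shared with the antisense gene SRP9. HLP, a mitochondrial large-subunit protein, rose from 19.6 ± 0.964 to 26.2 ± 1.71 FPKM (log2 change 0.40, limma adjusted p = 0.00314). AT2G21290, mitochondrial S31, was at 36.3 ± 1.60 and 40.6 ± 4.97 FPKM (SD, n = 4) and was not called. Among these low members AT1G29040, an L34 gene picked with values known, fell by 0.36 (adjusted p = 0.0365), a call that held in 1 of 8 leave-one-out fits; it shares 674 bases with AT1G29041 on the same strand.

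**Figure D3:**
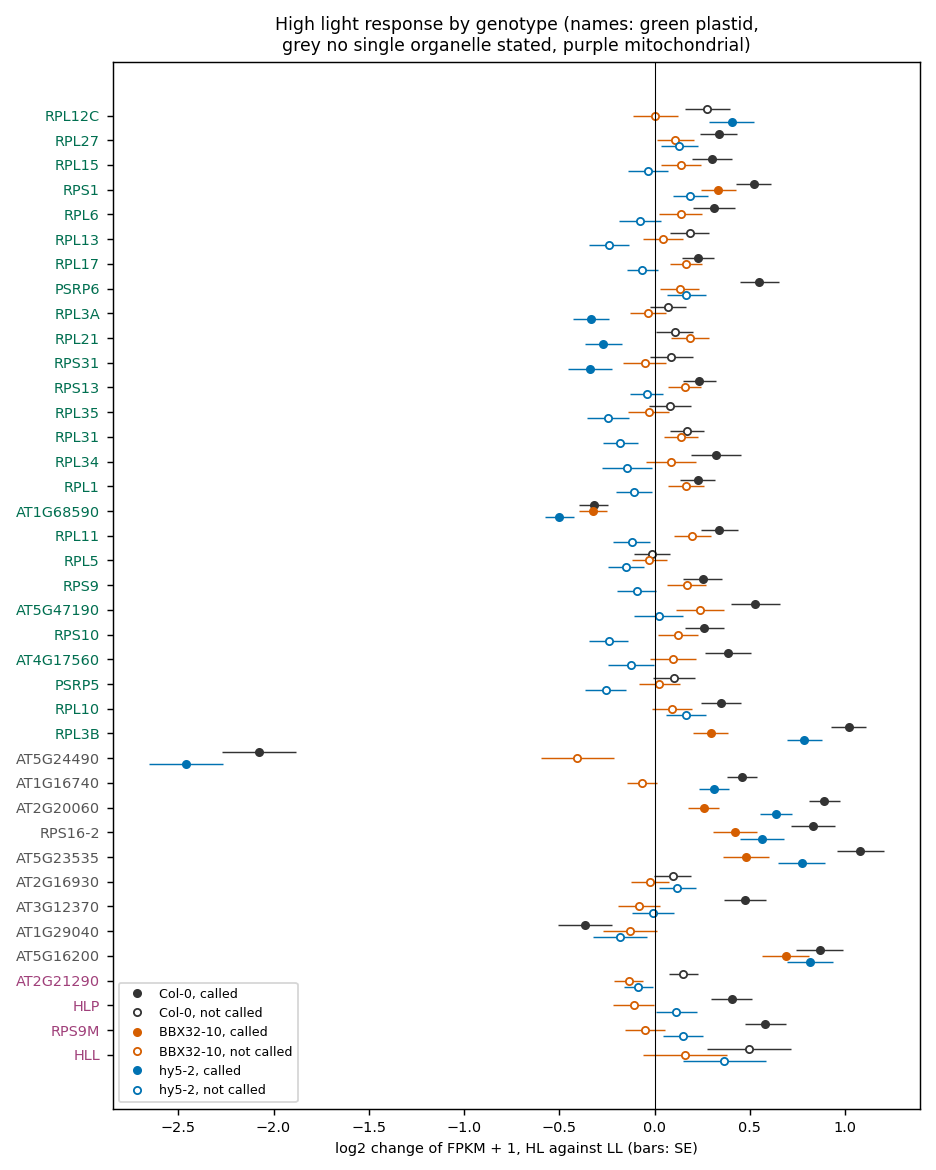
Log2 change of FPKM + 1 in HL against LL for 39 members in 3 genotypes, with the SE; filled points passed the test. AT5G24490 lies at -0.40 for BBX32-10, -2.08 for Col-0 and -2.46 for hy5-2, and most other points lie between -0.50 and 1.08.

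In hy5-2 few plastid members rose in HL. Of 27 plastid members 2 rose and 5 fell, and the median log2 change was -0.12. Over all 40 members 7 rose and 6 fell, with 23.1% of all tested genes higher and 20.4% lower; the members' median was -0.071 and that of all genes -0.0019. RPS31, plastid S31 of the small subunit, had 347, 347, 341 and 343 FPKM in LL and 260, 312, 246 and 275 in HL, and it fell by 0.34 without overlap (adjusted p = 0.0197). RPL3A fell by 0.33 and RPL21 by 0.27, both picked with values known; with a library left out the RPL21 call held in 4 of 8 fits and the RPS31 call in 7 of 8. Without hy5-2 LL replicate 4, which was the lowest LL library for 23 of 27 plastid members, 10 of 40 fell. The share of all tested genes in that fit was not counted.

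Among plastid members, RPL12C and RPL3B were the ones that rose in hy5-2. RPL12C had 439, 401, 438 and 498 FPKM in LL and 572, 608, 568 and 597 in HL, without overlap, and rose by 0.40 (SE 0.12, adjusted p = 0.00862). RPL3B rose by 0.79 (adjusted p = 6.45e-07). The mesophyll markers in hy5-2 went from 26121 to 29067 summed FPKM in LL to 39091 to 46531 in HL, while the plastid members summed to 6796 to 7990 in LL and 6844 to 7533 in HL.

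Between hy5-2 and Col-0 no member passed the interaction test in limma, where 0.0281% of all genes were called higher and 0.624% lower, and 25 of 40 had an unadjusted p under 0.05 (62.5%, against 11.9% of all tested genes). The interaction was negative for 37 of 40 members, with a median of -0.33 on the log2 scale against -0.042 over all tested genes. After rescaling the medians were -0.25 and 0.026. Cytosolic ribosomal protein genes had similar values, so this was not particular to the members. Of 183 tested, 174 had a negative interaction and 109 an unadjusted limma p under 0.05, and the median was -0.36. Without hy5-2 LL replicate 4 the test called 6 members lower, and the share of all tested genes in that fit was not counted. In LL no member was called between hy5-2 and Col-0 (0.174% of all genes higher and 0.197% lower; 4 members at an unadjusted p under 0.05, 10.0% against 14.4% of all tested genes). In HL 0 members were higher and 2 lower in hy5-2 (0.349% of all genes higher and 2.06% lower), AT5G24490 and RPL11. RPL11 was at 292, 278, 276 and 291 FPKM in Col-0 HL and 218, 231, 208 and 225 in hy5-2 HL, a log2 difference of -0.36 without overlap (adjusted p = 0.0467), but this call was lost in each of the 8 leave-one-out fits and on rescaling (-0.26, adjusted p = 0.231). In all, 19 members had an unadjusted p under 0.05 (47.5%, against 14.7% of all tested genes), and 22 had every hy5-2 HL library below every Col-0 HL library (55%, against 10.3%). With libraries of the 2 groups alone in the fit, 11 members were lower, and the share of all genes lower in that fit was not counted. Leaving out any library from the fit to all 6 groups left at most 1. Libraries were not left out of the fit to 2 groups.

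In BBX32-10 7 of 40 members were called between lights. There were 6 higher and 1 lower of 40, with 10.7% of all tested genes higher and 8.85% lower, and the medians were 0.11 for members and 0.019 for all genes. Among plastid members 2 rose and 1 fell, RPS1 by 0.33 (adjusted p = 0.013) and RPL3B by 0.29 (adjusted p = 0.0257), with AT1G68590 lower. With only the groups of this contrast fitted neither rise was called (adjusted p = 0.114 for RPS1 and 0.108 for RPL3B), and with a library left out the RPL3B call held in 3 of 8 fits and the RPS1 call in 8 of 8. For RPS1 the HL libraries had 451, 370, 389 and 299.5 FPKM, a spread wider than in Col-0, and replicate 4 lay within the LL range of 281 to 321. Replicate 4 was the lowest HL library for all 27 tested plastid members, and without it 18 members rose. The share of all tested genes in that fit was not counted.

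**Figure D4:**
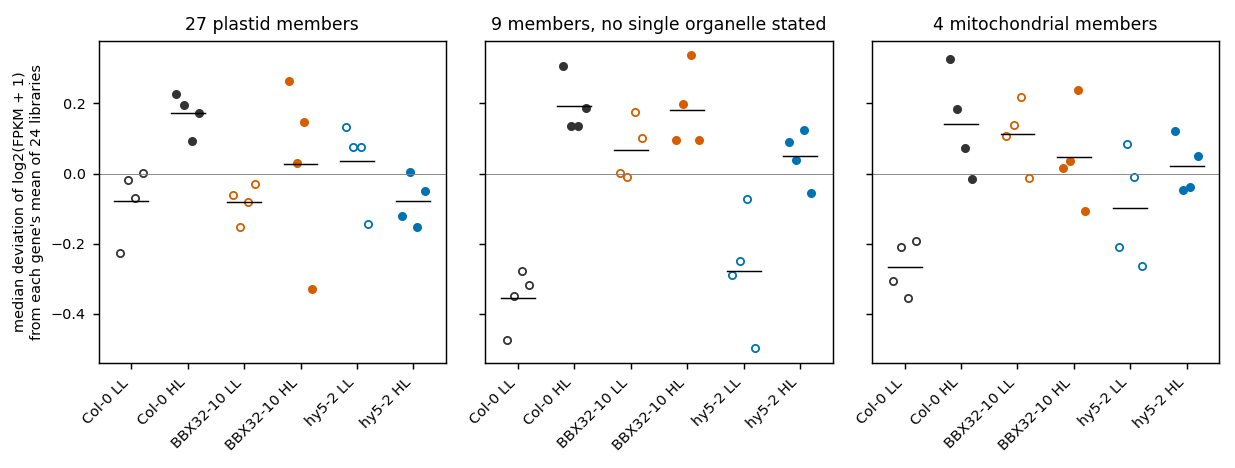
For each library, the median over members of the deviation of log2(FPKM + 1) from the gene's mean over 24 libraries; open points are LL, filled points HL, and lines are group means. In BBX32-10 HL the plastid values run from -0.33 to 0.26, the widest span of any group in that panel.

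In LL, members were called higher in BBX32-10 than in Col-0 at a share near that of all tested genes. Of 40 members 11 were higher (27.5%) and 0 lower than in Col-0, with 25.8% of all genes higher and 16.7% lower. After rescaling 8 were higher and 2 lower (20.0% and 5.0%), against 19.6% and 21.5% of all tested genes. The 0 was also 0 with a pseudocount of 0.1. At an unadjusted limma p under 0.05 there were 14 members (35.0%), below the 50.1% of all tested genes. The 11 called members were 3 of 27 plastid members, 3 of 4 mitochondrial members and 5 of 9 with no single organelle stated. After rescaling these counts were 1, 2 and 5. The AT2G21290 call was lost without Col-0 LL replicate 1 or 3 or BBX32-10 LL replicate 1, 2 or 3 (limma adjusted p = 0.0530 to 0.0905). The RPL12C call was lost without Col-0 LL replicate 1 or 4 or BBX32-10 LL replicate 4 (limma adjusted p = 0.0516 to 0.0621). The phloem marker SUC2 was at 60.8 to 83.1 FPKM in Col-0 LL and at 98.7 to 115 in BBX32-10 LL, without overlap, and its part in the result was not tested. RPL3B in BBX32-10 LL had 28.3, 25.8, 29.6 and 26.4 FPKM, above all Col-0 LL libraries and below all Col-0 HL libraries, with a log2 difference from Col-0 LL of 0.63 (SE 0.09, adjusted p = 9.64e-06). RPS9M was at 19.3 ± 1.14 FPKM (SD, n = 4; log2 difference 0.41, limma adjusted p = 0.00336) and HLP at 27.8 ± 2.99 (0.48, limma adjusted p = 0.00111). AT5G23535 was at 23.7 ± 2.03 FPKM (0.44, limma adjusted p = 0.00597). AT5G16200, a 50S-like protein at low level, was at 3.53 ± 0.688 against 2.25 ± 0.638 FPKM (0.49, limma adjusted p = 0.00303).

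AT1G16740, an L20 gene picked with values known, is given as an example; the antisense gene AT1G16750 overlaps 59 of its bases. It had 26.3, 28.8, 22.8 and 24.8 FPKM in Col-0 LL and 35.5, 37.1, 34.6 and 34.7 in Col-0 HL. In BBX32-10 it had 37.5, 39.0, 35.6 and 37.7 FPKM in LL and 35.9, 36.1, 37.2 and 33.7 in HL. The BBX32-10 LL libraries were above every Col-0 LL library, by 0.53 on the log2 scale (adjusted p = 1.49e-05), and the HL change in BBX32-10 was -0.07 and not called. The interaction was -0.52 (SE 0.11, adjusted p = 0.00236).

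Interactions of BBX32-10 with HL were called for 9 members, 1 higher and 8 lower, with 6.95% of all genes higher and 12.9% lower. The higher one was AT5G24490. The lower ones were 2 of 27 plastid, 2 of 4 mitochondrial and 4 of 9 with no single organelle stated. RPL3B had -0.72 (SE 0.13, adjusted p = 0.000499), RPS9M -0.63 (SE 0.15, adjusted p = 0.00483), AT5G23535 -0.60 (SE 0.17, adjusted p = 0.0173) and HLP -0.51 (SE 0.15, adjusted p = 0.0196). These interactions share the LL libraries of both BBX32-10 and Col-0 with the comparison of the lines in LL, with opposite sign. LL libraries of either group that lie high or low therefore move both results, in opposite directions. The HLP interaction call was lost without BBX32-10 HL replicate 4 (-0.44, limma adjusted p = 0.0502). With rescaled libraries 1 member had a higher and 7 a lower interaction.

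In HL, 4 members were called between BBX32-10 and Col-0. There were 2 members higher and 2 lower, with 10.9% of all genes higher and 12.7% lower; after rescaling 1 was higher and 2 lower. AT5G24490 and AT1G68590 were higher. RPS1 was lower by 0.31 (adjusted p = 0.0163), and RPL31, picked with values known, was lower by 0.25 (adjusted p = 0.0493). With only those groups fitted RPS1 was not called (adjusted p = 0.13), and with a library left out the RPL31 call held in 2 of 8 fits. With rescaled libraries RPL31 was not called (-0.28, limma adjusted p = 0.0769). AT5G47190, picked with values known and not called in the main fit (limma adjusted p = 0.0649), was then called lower (-0.36, limma adjusted p = 0.0428). Without BBX32-10 HL replicate 1 the count lower was 11, and without replicate 4 it was 0. The shares of all tested genes in those fits were not counted.

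**Figure D5:**
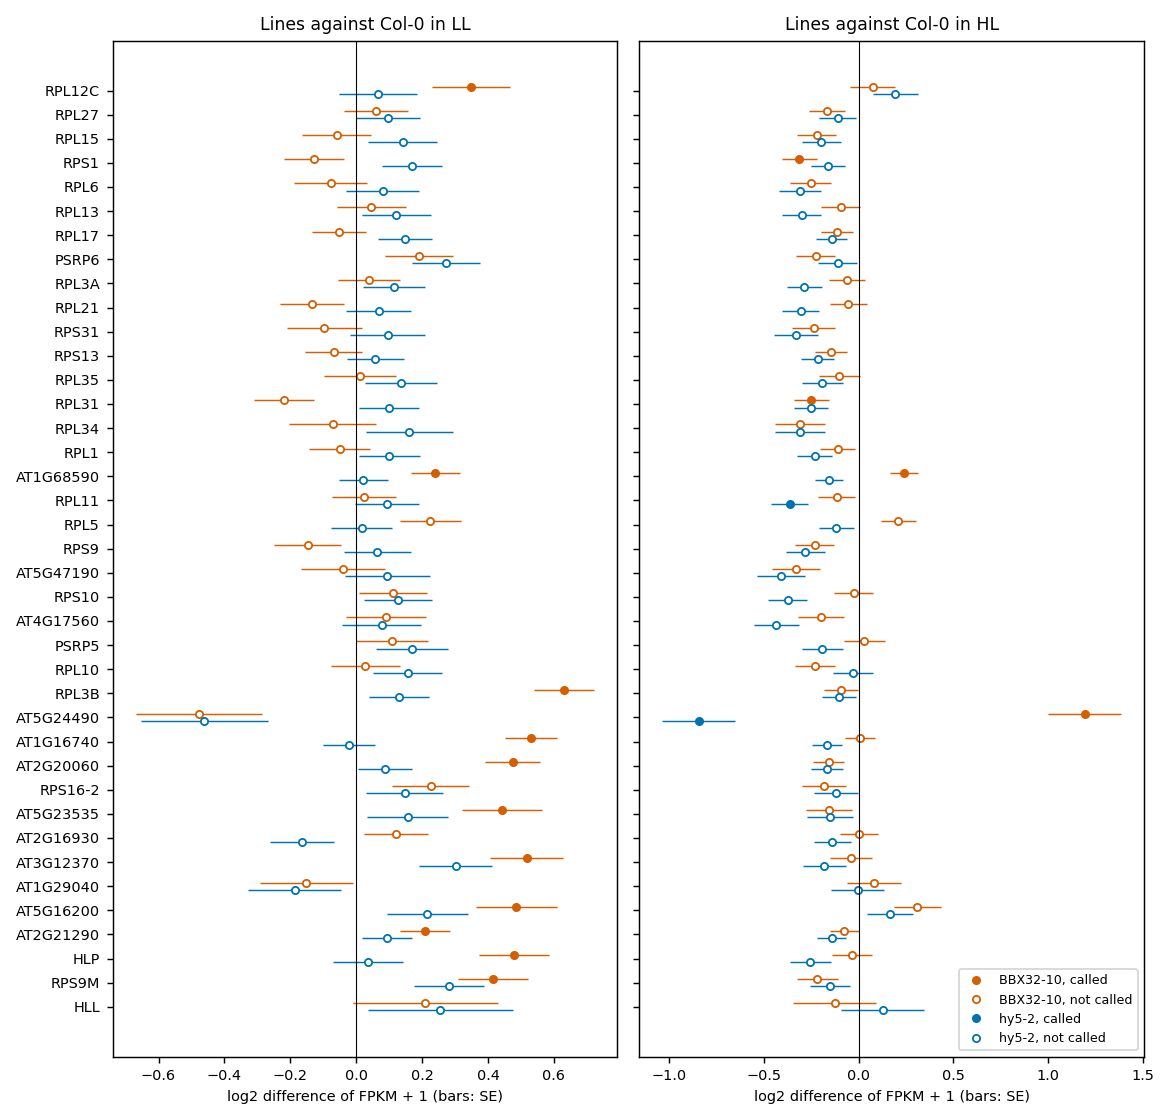
Log2 difference of FPKM + 1 of each line from Col-0 for 39 members, in LL (left) and HL (right), with the SE; filled points passed the test and the axes differ. In LL 11 members are called for BBX32-10 and 0 for hy5-2, and in HL AT5G24490 lies at 1.19 for BBX32-10 and -0.85 for hy5-2.

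Some members were called higher in HL in all 3 genotypes. The HL responses of the genotypes share no libraries, though all groups share 1 estimate of the spread. The 5 members that rose in each were AT5G23535, AT5G16200, RPL3B, RPS16-2 and the L4 gene AT2G20060, the last pair picked with values known. The share of all tested genes called higher in all 3 was not counted. The rises were not of 1 size: RPL3B, AT5G23535 and AT2G20060 had called interactions with BBX32-10. In BBX32-10 the call held in 3 of 8 leave-one-out fits for RPL3B and in 2 of 8 for AT2G20060. The log2 rises of AT5G16200 were 0.69 for BBX32-10, 0.82 for hy5-2 and 0.87 for Col-0. All 5 had mean levels below 60 FPKM. Of the 24 plastid members at 100 FPKM or above, 14 rose and 1 fell with Col-0 plants, 1 rose and 1 fell with BBX32-10 plants, and 1 rose and 5 fell with hy5-2 plants. Of the other 16, the corresponding counts were 10 and 2, 5 and 0, and 6 and 1. This division by level was made with values known and was not tested.

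Genes that work with plastid ribosomes were set beside the members. Of 15 plastid ribosome assembly factors, such as helicases and GTPases, 13 rose and 0 fell in Col-0 HL, with a median log2 change of 0.78. Of all tested genes 30% rose and 21.6% fell. At an unadjusted limma p under 0.05 the counts were 13 in all. With rescaled libraries 11 of the 15 rose, against 26.0% of all tested genes. The largest was emb2746 (1.49, adjusted p = 2.20e-08). In BBX32-10 LL 11 of the 15 were higher than in Col-0, led by BPG2 (1.02, adjusted p = 4.07e-09), and 10 had a lower interaction. With rescaled libraries each of these counts was 9. Of all tested genes 25.8% were higher in BBX32-10 LL and 12.9% had a lower interaction in the main fit. In hy5-2 HL 7 rose and 2 fell, with 23.1% of all tested genes higher and 20.4% lower. Of 12 tested plastid translation factors 7 rose and 1 fell in Col-0, the peptide chain release factor gene PRFB3 by 0.87 (adjusted p = 7.92e-07) and the initiation factor gene IF3-4 with -1.35 (adjusted p = 6.72e-06). With rescaled libraries 3 of these 12 rose and 1 fell.

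Cytosolic ribosomal protein genes were counted in the same fit. Of 183 tested 170 rose and 1 fell in Col-0 HL, with a median log2 change of 0.60. In BBX32-10 9 rose and 1 fell, with a median of 0.066, and in hy5-2 73 rose and 0 fell, with a median of 0.26 and 95 at an unadjusted limma p under 0.05. The 15 tested plastid-encoded ribosomal protein genes were 0 higher and 0 lower in Col-0 HL, none at an unadjusted limma p under 0.05. They were 0 higher and 4 lower in BBX32-10 HL (median log2 change -0.35), and 0 higher and 10 lower in hy5-2 HL (median -0.76). Of all tested genes 8.85% were lower in BBX32-10 HL and 20.4% in hy5-2 HL. The hy5-2 interaction was called for 1 of the 15, and for 0 with rescaled libraries. Polyadenylated RNA was selected before sequencing, per the labels' protocols, and plastid transcripts mostly lack long poly(A) tails, so these values are a partial sample of plastid RNA.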

How the data were processed

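RNA-seq was made from polyadenylated RNA of leaves, per the labels' protocols. The authors deposited 1 table of FPKM values for 34218 genes and 24 libraries. The submitters' processing notes name TAIR10, CASAVA, HISAT2 2.0.5, HTSeq 0.6.1, DESeq and DESeq2 1.20.0, with no role. Strand use and gene lengths are not given in the sources used here, so reads of antisense or overlapping genes cannot be told apart; 14 members overlap another gene.

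Depth was recovered from FPKM steps (99.1% to 99.5% of values below 50 fragments were whole within 0.05). Genes that reached 1 FPKM in 4 libraries or more entered the test as log2(FPKM + 1), which understates changes of low genes. A mean for each of 6 groups was fitted to 24 libraries with limma 3.58.1 (eBayes with trend) in R 4.3.3, two-sided, with Benjamini-Hochberg adjustment over 17788 genes in each of 9 contrasts; the script was tested on simulated data. Counts of replicates differed by a chi-square of 13.5 to 224 per degree of freedom in 36 pairs, so no library was a duplicate. Libraries carry replicate numbers only, so p-values measure the spread between them.

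Members and lists were chosen with earlier results of these data known. Named were 10 members with a known ribosomal role, the most abundant members of each class and the largest called change in each direction of each contrast, 19 in all; others are marked where named. Values of 2 members and 1 sequence are not reported here. Overlaps with the TAIR10.1 annotation, and similar transcripts (blastn 2.17.0, at least 85% identity over at least 100 bases), were listed. Of the gene IDs 32548 matched that annotation, with equal start and end for 99.95%. Alternative settings were no filter, a pseudocount of 0.1, a mean of at least 5 FPKM, rescaled libraries, a fit to the contrast's groups, the replicate number as a block and leaving out each library.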

Additional observations from a re-analysis of the deposited data

Results flagged for a closer look

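Library values far from the rest of their group were sought in 96 groups of 4, and 7 stood apart; chance gives about 1 in 20 groups. AT5G24490 in BBX32-10 LL replicate 4 was at 81.2 FPKM, with the others at 62.1 to 63.8. In the same library RPS13 was at 292 (others 272 to 273) and RPS9M at 17.6 (others 19.8 to 20.1). In hy5-2 LL replicate 4 RPL13 was at 285 (others 375 to 388). RPL12C in Col-0 HL replicate 2 was at 624 (others 473 to 489). RPS31 was at 280.01 in Col-0 LL replicate 1 (others 334 to 343) and at 323 in Col-0 HL replicate 3 (others 348 to 351).

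The response to HL differed between BBX32-10 and Col-0, by the limma interaction, in 5 of the named members. The log2 interaction was 1.67 for AT5G24490, -0.51 for HLP, -0.63 for RPS9M, -0.60 for AT5G23535 and -0.72 for RPL3B. The HLP call was lost without BBX32-10 HL replicate 4.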

How the results depend on the processing

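Among the tested members named by rule, no direction of a called value turned under any setting tried. Other members were not followed through every setting. Replicate numbers were not taken to pair libraries, because the labels do not state that they do. Correlations of same-numbered libraries ran from -0.53 to 0.47 and 12 of 60 were over 0.1. Differently numbered libraries were not compared, so these values cannot decide whether the numbers pair libraries. With the replicate block, Col-0 had 23 members higher in HL, and members lower in HL were 1 for BBX32-10 against Col-0 and 1 for hy5-2 against Col-0. For BBX32-10 against Col-0 in HL, members lower were 1 with a pseudocount of 0.1, 1 with no filter and 0 with only those groups fitted, and members higher were 1 when rescaled and 1 with only those groups. For hy5-2 against Col-0 in HL, members lower were 1 with no filter, 4 at a mean of at least 5 FPKM, 1 when rescaled and 11 with only those groups. For BBX32-10 against Col-0 in LL, members lower were 1 at a mean of at least 5 FPKM, 2 when rescaled and 2 with only those groups. Rescaling left 14 members higher in Col-0 HL, and fitting only the groups gave 3 higher in BBX32-10 HL and 1 lower in the hy5-2 interaction. The cause was not tested, except that fewer genes or libraries entered some fits.

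Leaving out each library, members higher and lower in HL ran from 16 to 25 and from 2 to 3 in Col-0, from 4 to 18 and from 1 to 2 in BBX32-10, and from 7 to 7 and from 4 to 10 in hy5-2. For BBX32-10 against Col-0 they ran from 8 to 12 and from 0 to 2 in LL, and from 1 to 3 and from 0 to 11 in HL. For hy5-2 against Col-0 they were 0 in LL, and 0 higher and 0 to 1 lower in HL. The interactions were 1 higher and 6 to 10 lower for BBX32-10, and 0 higher and 0 to 6 lower for hy5-2. Shares of all tested genes were counted only in the main fit and with rescaled libraries. Depth limited AT5G16200, with 55 to 277 fragments per library, and HLL, with 54 to 262.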
